A study of Mus musculus with 8 samples.

Results

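The CXC chemokine genes of mouse chromosome 5 were examined for histone H3 lysine 9 (H3K9) methylation. The set held 9 of the 55413 genes annotated on the 21 main chromosomes, namely Cxcl1, Cxcl2, Cxcl3, Cxcl5, Cxcl9, Cxcl10, Cxcl11, Cxcl13 and Cxcl15. They were chosen by name and position, and no methylation value entered the rule, although earlier results of these data were known. Each gene was scored at its start sites (1 kb either side), over its gene body, and over its locus with 200 kb on each side, against the regions enriched for H3K9me1, H3K9me2 and H3K9me3.

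The data were chromatin immunoprecipitation and sequencing (ChIP-seq) profiles from mouse embryonic fibroblasts (MEFs) called wild type. There were 8 samples in 4 groups, with 2 replicates each of input, H3K9me1, H3K9me2 and H3K9me3. All groups shared the same genotype. According to the study's methods, these cells (E1c) carried a conditional Eset1 (Setdb1) allele and a tamoxifen-inducible Cre and came from a single clone, so they stand for a single cell line and not for separate embryos. No expression was measured in these profiles, so the fibroblast label could not be checked against marker genes. For each mark 1 list of enriched regions was used, with 42704 regions for H3K9me1, 29119 for H3K9me2 and 27108 for H3K9me3, and each region was given as a position with no height or score. The lists did not separate the replicates, so no value below has an SD, an n of replicates or a test, and the depth behind a region is unknown. Regions were built from bins of 750 bp, which sets the finest distance that can be read.

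Chemokines are small secreted proteins that attract leukocytes, and the CXC class is named for the spacing of its first cysteines. Cxcl1, Cxcl2, Cxcl3, Cxcl5 and Cxcl15 are attractants of neutrophils, and the first 4 of them act through the receptor Cxcr2. Cxcl9, Cxcl10 and Cxcl11 are induced by interferons and attract T cells through Cxcr3. Cxcl13 attracts B cells through Cxcr5. In fibroblasts several of these genes are inducible, by NF-kappaB after inflammatory signals and by STAT and IRF factors after interferon. H3K9me2 and H3K9me3 are marks of repressed chromatin, with H3K9me3 dense over many repeats and bound by the HP1 proteins. H3K9me1 is an intermediate of these marks and is also found around active genes.

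The promoters of 4 genes are shown because they place the inducible sites of the family beside the regions of H3K9me1. They are the 250 bases before the RefSeq start (GRCm38.p6), written 5′ to 3′, and the table of RefSeq promoters held 7 of the 9 genes. Capitals mark the NF-kappaB site, the TATA box (TATAAA) and the interferon-stimulated response element (ISRE, which is GAAA, a spacer of any 2 bases and GAAA), searched on both strands. The Cxcl3 promoter is at chr5:90785851-90786100 (plus strand), Cxcl2 at chr5:90903649-90903898 (plus), Cxcl1 at chr5:90890995-90891244 (plus) and Cxcl10 at chr5:92348890-92349139 (minus).
Cxcl3: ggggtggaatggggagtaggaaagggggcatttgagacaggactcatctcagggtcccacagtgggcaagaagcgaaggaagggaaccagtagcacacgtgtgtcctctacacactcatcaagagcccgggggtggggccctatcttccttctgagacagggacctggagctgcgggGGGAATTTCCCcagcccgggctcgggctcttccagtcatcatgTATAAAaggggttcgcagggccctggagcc
Cxcl2: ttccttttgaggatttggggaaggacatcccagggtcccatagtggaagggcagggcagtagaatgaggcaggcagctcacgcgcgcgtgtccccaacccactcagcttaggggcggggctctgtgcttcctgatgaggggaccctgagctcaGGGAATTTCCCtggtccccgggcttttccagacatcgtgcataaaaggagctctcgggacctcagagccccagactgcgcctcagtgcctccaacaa
Cxcl1: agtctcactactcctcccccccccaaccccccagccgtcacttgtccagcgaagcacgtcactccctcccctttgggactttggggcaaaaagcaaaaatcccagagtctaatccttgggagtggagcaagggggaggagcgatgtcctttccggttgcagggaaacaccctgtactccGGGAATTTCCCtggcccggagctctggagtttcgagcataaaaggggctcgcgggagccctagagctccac
Cxcl10: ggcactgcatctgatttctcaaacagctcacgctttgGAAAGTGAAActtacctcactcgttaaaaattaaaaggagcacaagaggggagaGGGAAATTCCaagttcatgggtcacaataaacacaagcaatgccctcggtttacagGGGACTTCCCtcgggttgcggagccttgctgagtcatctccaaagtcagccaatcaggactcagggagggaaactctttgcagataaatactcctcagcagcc

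The same NF-kappaB site, GGGAATTTCCC, lay 73 to 63 bp before the start of Cxcl3, 97 to 87 bp before that of Cxcl2 and 71 to 61 bp before that of Cxcl1. The motif matched these letters on both strands, offset by 1 base, and they were counted as 1 site. Cxcl10 held 2 NF-kappaB sites, 159 to 150 bp and 103 to 94 bp before its start, and an ISRE 213 to 204 bp before it. An NF-kappaB site was thus found in 4 of the 7 promoters, against 3.90% of the 32851 promoters searched. The ISRE was found in Cxcl10 and in none of the other 6, against 2.98% of all promoters. TATAAA was found in Cxcl3, Cxcl15, Cxcl9 and Cxcl13, against 12.4% of all promoters. It lay 30 to 25 bp before the start of Cxcl3, 27 to 22 bp before Cxcl15 and 46 to 41 bp before Cxcl13. In Cxcl9 it lay far from the start, 195 to 190 bp before it. The interferon-gamma element GAS (TTCNNNGAA) was in none of the 7, against 7.02%.

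These promoters differed in their cover by H3K9me1. All 250 bases of the Cxcl3 promoter lay in an H3K9me1 region, as did 148 bases of the Cxcl2 promoter. In both genes the covered stretch held the NF-kappaB site. The bins of 750 bp are wider than these promoters, so the call does not resolve cover of the site itself. The promoters of Cxcl1, Cxcl10, Cxcl15, Cxcl9 and Cxcl13 had 0 bases in a region. Cxcl3, Cxcl2 and Cxcl1 thus had the same NF-kappaB letters, a GC content of 60.0%, 60.0% and 59.2%, and a different cover by the mark. These genes are similar in sequence, and how reads matching several of them were treated was not given in the sources used here. The difference in cover rests on that unknown. No promoter of the 7 had a base in an H3K9me2 or H3K9me3 region.

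Across the 9 genes, H3K9me1 met the start site of 4, which were Cxcl3, Cxcl2, Cxcl9 and Cxcl11. H3K9me2 met the start site of 0 of 9 and H3K9me3 of 0 of 9. By the same rule H3K9me1 met 36.5% of the 3249 genes of chromosome 5 and 21.4% of all annotated genes. H3K9me2 met 13.3% of chromosome 5 genes and 11.5% of all, and H3K9me3 met 15.0% and 12.0%. The count for H3K9me1 was thus near the share on the chromosome. At the low shares of H3K9me2 and H3K9me3, a count of 0 among 9 genes says little on its own. Among the 1260 protein-coding genes of chromosome 5 the shares were 50.2% for H3K9me1, 13.8% for H3K9me2 and 11.9% for H3K9me3.

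Gene bodies were met by H3K9me1 in the same 4 genes. H3K9me2 met the body of Cxcl13 and of no other member, and H3K9me3 met none. On chromosome 5 the bodies of 46.0% of genes were met by H3K9me1, 19.2% by H3K9me2 and 19.2% by H3K9me3, and over all annotated genes the shares were 26.7%, 14.6% and 15.2%. Among the protein-coding genes of chromosome 5, which include 8 of the 9 members, the shares were 71.6%, 24.6% and 19.9%. The members' median length was 3.50 kb, beside 3.63 kb for all genes of chromosome 5 and 22.8 kb for its protein-coding genes. Cxcl5, Cxcl15, Cxcl1 and Cxcl10 had no base of start window or body in a region of any mark. The share of all genes free of every mark was not computed, so this count has no background beside it.

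**Figure D1:**
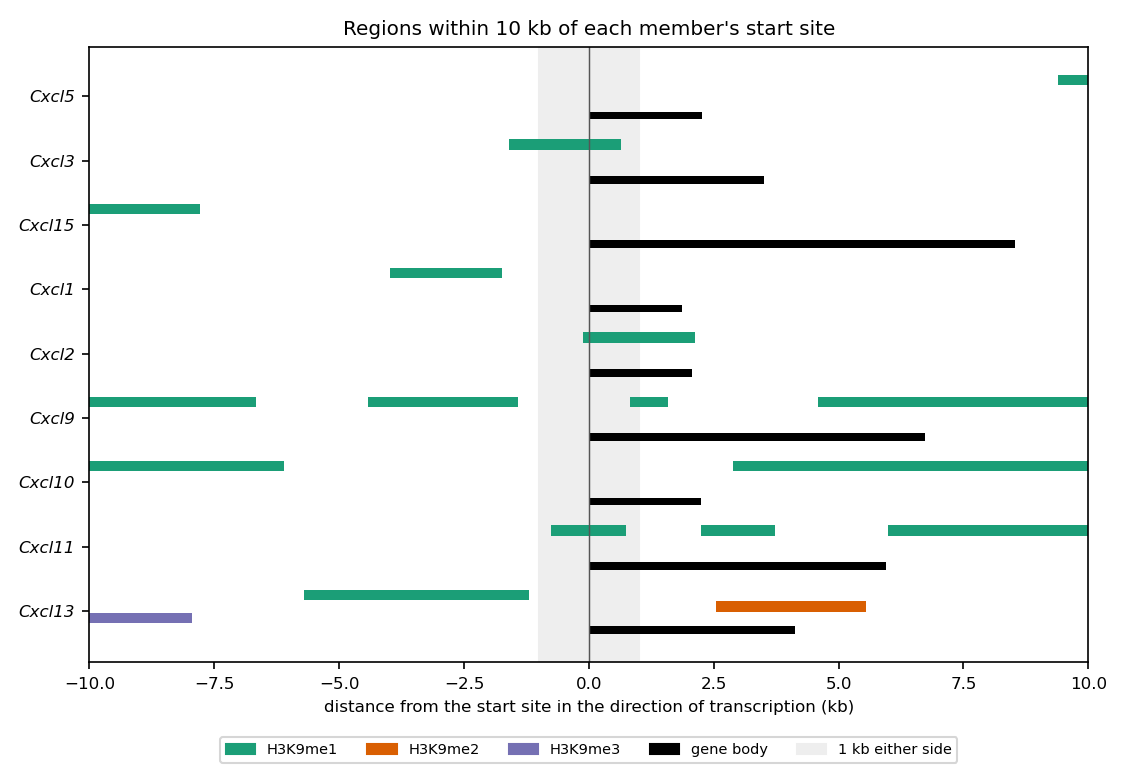
Enriched regions within 10 kb of the start site of each of the 9 genes, with distance in kb along the direction of transcription on the x axis and 1 gene per row. Coloured bars are regions, cut at 10 kb, black bars are gene bodies, and the grey band is 1 kb either side of the start; H3K9me1 reaches the band in 4 genes, and H3K9me2 and H3K9me3 in none.

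The annotation gave the 9 genes 16 start sites, of which 7 were met by H3K9me1 and 0 by the other marks. All but 1 of the additional sites lay within 22 bp of the 5′ end of the gene. The exception was in Cxcl11, whose inner start lay 2208 bp inside the gene. The start base itself was inside an H3K9me1 region in 3 genes, Cxcl3, Cxcl2 and Cxcl11. Cxcl9 passed by its window alone, with its region beginning 829 bp inside the gene and covering 172 bp of the window. On the other side of the 1 kb limit were Cxcl13, with H3K9me1 1.20 kb before its start, and Cxcl1, with H3K9me1 1.74 kb before its start.

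The median distance from a start base to the nearest H3K9me1 region was 1.20 kb for the 9 genes and 4.68 kb for all genes of chromosome 5. The latter include many genes that are not protein-coding, unlike most of the members. Among the protein-coding genes of chromosome 5, 50.2% had H3K9me1 within 1 kb of a start, and their median distance is not given here. For H3K9me2 the medians were 53.4 kb and 41.0 kb, and for H3K9me3 they were 62.1 kb and 54.6 kb. H3K9me1 was the nearest mark at every one of the 9 starts. It also had the most regions on chromosome 5, with 4498 beside 2407 for H3K9me2 and 1663 for H3K9me3. The share of all genes with H3K9me1 as the nearest mark was not computed. The distances of neighbours are not independent, since 1 region can be the nearest for several genes. The same pair of overlapping H3K9me2 and H3K9me3 regions was the nearest of those marks for all 5 neutrophil attractants.

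**Figure D2:**
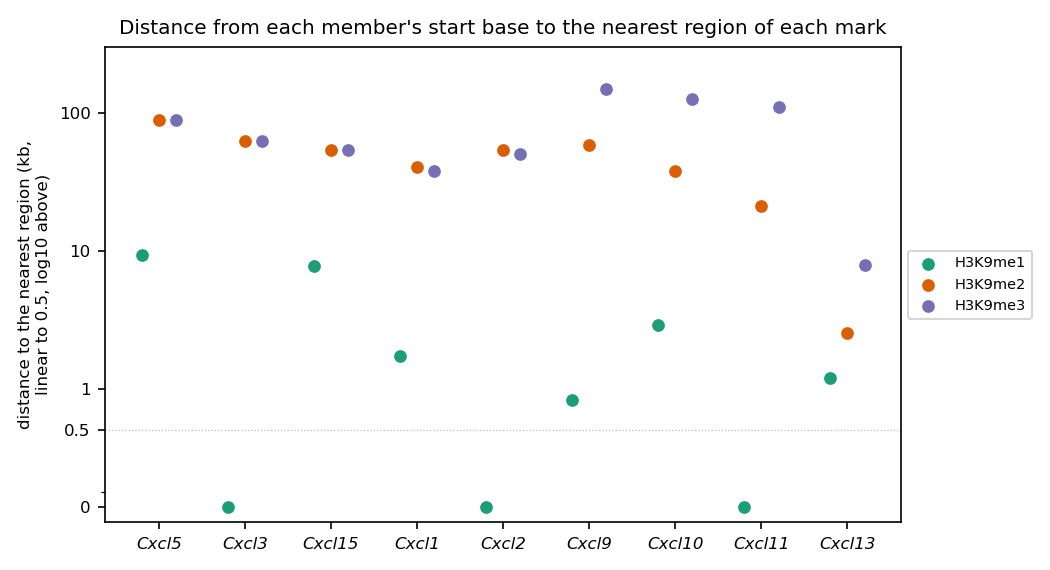
Distance from the start base of each gene to the nearest region of each mark, in kb, on an axis that is linear to 0.5 kb and log10 above it. Points at 0 are start bases inside a region. H3K9me1, the mark with the most regions on chromosome 5, is the nearest for each gene. Cxcl13 is the only gene with all 3 marks within 10 kb.

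The neutrophil attractants lay together on the plus strand over 147 kb, in the order Cxcl5, Cxcl3, Cxcl15, Cxcl1 and Cxcl2. H3K9me1 formed short regions here, over the starts of Cxcl3 and Cxcl2 and between the other genes. Cxcl3 (ENSMUSG00000029379.10, chr5:90786103-90789600), a neutrophil attractant close in sequence to Cxcl1 and Cxcl2, had an H3K9me1 region of 2.25 kb at chr5:90784501-90786750. It ran from position -1602 to 647 bp relative to the start, and covered 82.4% of the start window and 18.5% of the body. Inside the gene it covered bases of 3 of the 4 exons, with 287 bp of coding sequence, 68 bp of 5′ UTR and 293 bp of intron. Most of this region thus lay before the gene.

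Cxcl2 (ENSMUSG00000058427.10, chr5:90903871-90905938), the neutrophil attractant also known as MIP-2, was the only member whose whole body lay in a region. Its H3K9me1 region at chr5:90903751-90906000 was 2.25 kb wide, began 120 bp before the start and ended past the 3′ end. It covered all 4 exons, with 300 bp of coding sequence, 72 bp of 5′ UTR and 737 bp of 3′ UTR, and 56.0% of the start window. The regions of Cxcl3 and Cxcl2 were equal in width but sat differently, the first before the gene and across its start and the second along the gene.

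Cxcl1 (ENSMUSG00000029380.11, chr5:90891241-90893115), known as KC and a principal neutrophil attractant of the mouse, had its nearest H3K9me1 region at chr5:90887251-90889500. This region was 2.25 kb wide and ended 1.74 kb before the start. Cxcl5 (ENSMUSG00000029371.7, chr5:90759360-90761624), known as LIX, was the farthest member from H3K9me1, at 9.39 kb from its start and 7.13 kb from its body. That region, chr5:90768751-90773250, covered 84.9% of Ppbp and 86.0% of Pf4, which are the CXC chemokine genes of platelets and lie between Cxcl5 and Cxcl3. Cxcl15 (ENSMUSG00000029375.6, chr5:90794534-90803067), a chemokine of lung epithelium known as lungkine, lay between H3K9me1 regions 7.78 kb before its start and 6.93 kb past its end. It was the longest member, at 8.53 kb, and had the lowest CpG count in its start window, 15, beside 37 to 50 in the other neutrophil attractants.

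The genes met by H3K9me1 and those not met overlapped in the base composition of the start window. Cxcl3 and Cxcl2, which were met, had a GC content of 49.8% and 51.2% in the start window, and Cxcl5 and Cxcl1, which were not, had 49.6% and 48.4%. The share of repeat (soft-masked) bases in the window was 17.3% for Cxcl3 and 11.9% for Cxcl2, beside 21.8% for Cxcl5 and 9.30% for Cxcl1. Cxcl15 had 40.1% GC and 12.4% repeat bases. Cxcl1, Cxcl2 and Cxcl3 are similar in sequence, and how reads that match more than 1 of them were treated was not given in the sources used here, so a region at 1 of them rests on that unknown.

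H3K9me2 and H3K9me3 were at 1 place between Cxcl5 and Cxcl2, in the gap between Cxcl15 and Cxcl1. An H3K9me2 region of 2.25 kb at chr5:90848251-90850500 lay wholly inside an H3K9me3 region of 5.25 kb at chr5:90848251-90853500, in intergenic sequence. Repeat bases made up 85.6% of the first and 70.1% of the second. This place was 37.7 kb (H3K9me3) and 40.7 kb (H3K9me2) before Cxcl1, and 45.2 kb after Cxcl15. The next H3K9me3 regions outside the cluster were 215 kb from Cxcl5 on the lower side and 322 kb from Cxcl2 on the higher side.

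With its flanks, the locus from Cxcl5 to Cxcl2 was 547 kb wide, and 17.6% of it lay in 22 regions of H3K9me1. H3K9me2 covered 1.54% in 3 regions and H3K9me3 covered 0.961% in 1 region. Chromosome 5 as a whole was covered to 19.2%, 10.4% and 16.5%. Of 268 windows of equal width along the chromosome, 59.0% had less H3K9me1, 38.1% less H3K9me2 and 15.3% less H3K9me3. The stretch that holds the genes was covered less by H3K9me1 (8.66%) than the flank below it (25.6%) or above it (16.2%). Bases with no mark made up 81.4% of the locus, and the longest stretch without a mark, 84.4 kb at the higher end, held no member. Of the 7 other protein-coding genes in this locus, H3K9me1 met the starts of 5 (5830473C10Rik, Rassf6, Ppbp, Pf4 and Mthfd2l), and H3K9me2 that of 5830473C10Rik. Among all protein-coding genes of chromosome 5 the shares were 50.2% for H3K9me1 and 13.8% for H3K9me2. The genes of the growth factors epigen (Epgn) and epiregulin (Ereg) had no region of any mark at start or body.

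**Figure D3:**
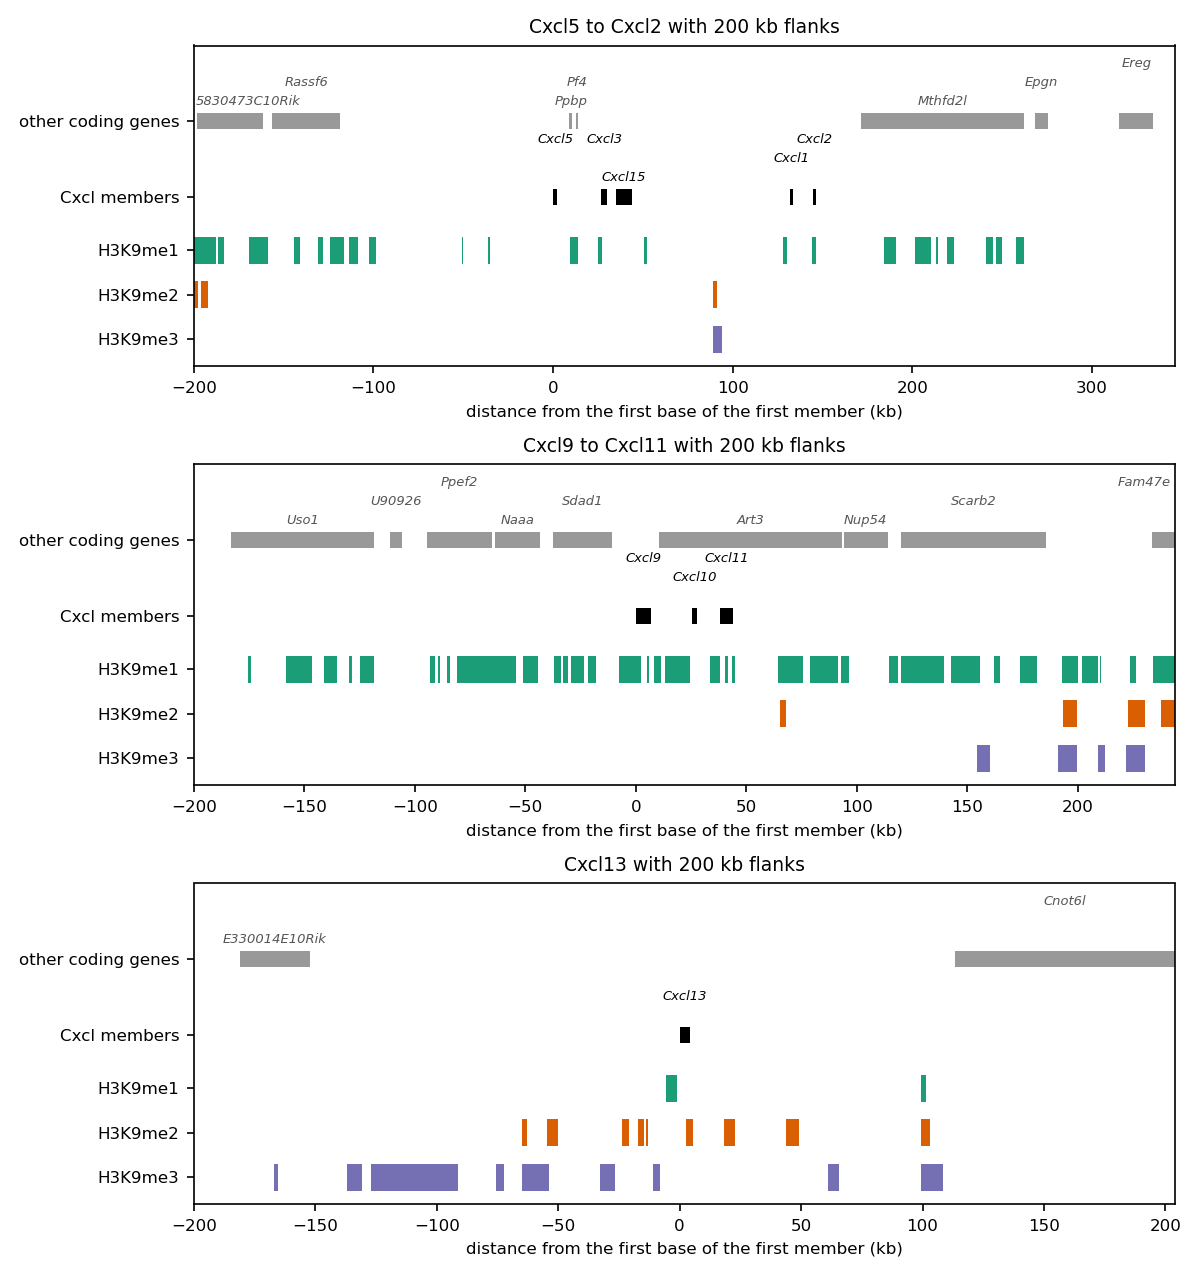
Maps of the 3 loci with 200 kb on each side, with distance in kb from the first base of the first member on the x axis. Black bars are the 9 chemokine genes, grey bars other protein-coding genes with a start inside the map, and coloured bars the regions of each mark; H3K9me1 regions are dense around Cxcl9 to Cxcl11, and H3K9me2 and H3K9me3 regions surround Cxcl13.

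The interferon-induced genes Cxcl9, Cxcl10 and Cxcl11 lay on the minus strand over 44.1 kb, in the chromosome stretch with the most H3K9me1 of the 3 loci. H3K9me1 covered 54.1% of the 44.1 kb in 7 regions, while H3K9me2 and H3K9me3 covered 0%. Cxcl9 (ENSMUSG00000029417.9, chr5:92321347-92328079), known as Mig, met 2 regions. The wider, 9.75 kb at chr5:92313751-92323500, covered 2154 bp of the last exon, all in the 3′ UTR. The narrower, 0.75 kb at chr5:92326501-92327250, was 1 bin wide and held 127 bp of coding sequence and 623 bp of intron. Together they covered 43.1% of the body but 8.60% of the start window.

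Cxcl10 (ENSMUSG00000034855.13, chr5:92346638-92348889), known as IP-10, had no region over its body or start window although it was surrounded by H3K9me1. A region of 11.25 kb at chr5:92334751-92346000 stopped 0.638 kb past its 3′ end, and the next began 6.11 kb before its start, at chr5:92355001-92359500. The distance of 0.638 kb is under 1 bin of the call. Cxcl10 was also the gene with 2 NF-kappaB sites and an ISRE in the promoter shown above.

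Cxcl11 (ENSMUSG00000060183.6, chr5:92359544-92365485), known as I-TAC, is annotated as a polymorphic pseudogene and met 2 H3K9me1 regions of 1.5 kb each. The first, chr5:92364751-92366250, ran from 765 bp before the start to 734 bp after it and covered 75.0% of the start window, with 735 bp in the first exon. The second, chr5:92361751-92363250, lay mostly in intron (1404 bp) and covered 48.7% of the window of the inner start site, which was 27 bp from it. Together they covered 37.6% of the body. Cxcl11 was overlapped over 26.6% of its length by Gm2673, a processed pseudogene on the opposite strand. Gm2673 (chr5:92363904-92365511) spans the start base of Cxcl11, and H3K9me1 covered 47.3% of it. The region at the Cxcl11 start thus lay partly on this pseudogene, and how uniquely reads could be placed there was not tested.

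Cxcl10 and Cxcl11 both lay wholly inside Art3, an ADP-ribosyltransferase gene on the plus strand at chr5:92331827-92414628. ChIP-seq has no strand, so a region inside these genes is a region inside Art3 as well. H3K9me1 covered 52.9% of Art3 and met its start, and H3K9me2 also met an annotated start of it and covered 3.62% of it. The nearest H3K9me2 region to the 3 chemokine genes was this one, 3.0 kb at chr5:92386501-92389500, at 21016 bp from Cxcl11, 37.6 kb from Cxcl10 and 58.4 kb from Cxcl9. H3K9me3 was farther, at 110 kb, 127 kb and 148 kb, in a 6.0 kb region inside the lysosomal receptor gene Scarb2.

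With flanks the locus was 444 kb wide and H3K9me1 covered 48.7% of it in 34 regions, the widest of 27.0 kb. Of 328 equal windows of chromosome 5, 84.1% had less, and their median was 5.11%. H3K9me2 covered 5.18% and H3K9me3 5.74%, each in 4 regions, and 57.0% and 56.1% of the windows had less. These regions all lay in the higher flank, where H3K9me2 covered 11.5% and H3K9me3 12.8%, while the lower flank had 0% of both. All 3 marks shared 2.03% of the locus. H3K9me1 met the starts of 7 of the 9 other protein-coding genes, namely Uso1, Ppef2, Naaa, Sdad1, Art3, Nup54 and Fam47e, and H3K9me2 those of Art3 and Fam47e. Scarb2 was met in its body alone, over 66.3% by H3K9me1 and 9.16% by H3K9me3, and U90926 was met by no mark. The cover by H3K9me1 was therefore shared by most genes of the locus, which include the vesicle tether gene Uso1, the amidase gene Naaa and the nucleoporin gene Nup54. Among all protein-coding genes of chromosome 5, H3K9me1 met 50.2% of starts and 71.6% of bodies, and H3K9me2 met 13.8% of starts.

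**Figure D4:**
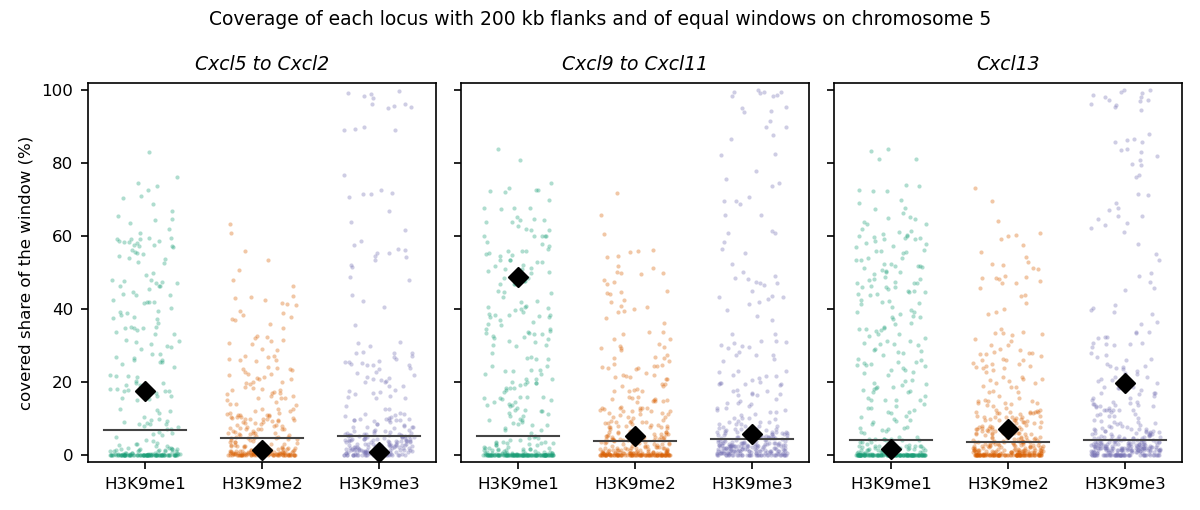
Share of each locus with 200 kb flanks covered by each mark (black diamonds) and of windows of equal width tiled along chromosome 5 (coloured points, grey line at their median), in percent. The diamond for Cxcl9 to Cxcl11 lies at 48.7% for H3K9me1, above 84.1% of windows, and that for Cxcl5 to Cxcl2 lies at 0.961% for H3K9me3, above 15.3% of windows.

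Cxcl13 (ENSMUSG00000023078.6, chr5:95956951-95961068), the B cell attractant, stood alone on the plus strand and differed from the other 8 genes in which marks were near it. It was the only member met by H3K9me2, in a region of 3.0 kb at chr5:95959501-95962500. This region began 2.55 kb after the start, covered 38.1% of the body and ran past the 3′ end, and it held 133 bp of coding sequence, 803 bp of 3′ UTR and 632 bp of intron in 2 of the 4 exons. An H3K9me1 region of 4.5 kb at chr5:95951251-95955750 ended 1.20 kb before the start, and an H3K9me3 region of 3.0 kb at chr5:95946001-95949000 ended 7.95 kb before it. The marks thus lay side by side around Cxcl13, and their regions there did not overlap. Repeat bases made up 23.1% of the H3K9me2 region and 10.6% of the H3K9me3 region.

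Over the 404 kb around Cxcl13 H3K9me3 covered the most and H3K9me1 the least, unlike the other loci, where H3K9me1 covered the most. The order of H3K9me3 and H3K9me2 turned with the flanks, with 8.64% against 18.1% for 50 kb flanks and 0% against 38.1% for the gene alone. H3K9me3 covered 19.9% in 9 regions, H3K9me2 7.24% in 9 and H3K9me1 1.67% in 2, and 75.8%, 62.8% and 43.3% of 360 equal windows had less. The widest H3K9me3 region, 36.0 kb at chr5:95829751-95865750, covered the pseudogenes Gm42714 and Gm5559 whole and was 51.0% repeat bases. At 95.2 kb past Cxcl13 all 3 marks began at the same base, 96056251, and H3K9me3 ran on for 9.0 kb over sequence that was 97.4% repeat. H3K9me2 and H3K9me3 were mostly apart, with 22.5 kb under H3K9me2 alone, 73.5 kb under H3K9me3 alone and 4.50 kb under just these marks. The other protein-coding genes here were E330014E10Rik, with H3K9me3 over 5.22% of its body, and the deadenylase gene Cnot6l, with no region. Neither was met at its start.

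The repeat share of covered bases differed by mark and by locus. H3K9me3 lay on sequence richer in repeats than the rest of the locus in all 3 loci, at 70.1% against 28.7% from Cxcl5 to Cxcl2, 88.0% against 29.2% from Cxcl9 to Cxcl11, and 57.0% against 38.9% around Cxcl13. The first of these values is that of a single region. H3K9me1 lay on sequence poorer in repeats in the first locus (21.5% against 30.8%) and the second (30.8% against 34.3%), but not around Cxcl13 (67.0% against 42.1%), where it had 2 regions. H3K9me2 was higher in the first locus (34.6% against 29.1%) and the second (66.3% against 30.8%) and lower around Cxcl13 (31.0% against 43.4%). GC content was higher inside the regions than outside for every mark in every locus, by small margins that ran from 44.9% against 44.0% for H3K9me1 around Cxcl9 to Cxcl11 to 45.6% against 41.0% for H3K9me3 from Cxcl5 to Cxcl2. These contrasts of repeats and GC were not computed for chromosome 5 as a whole, so they are not shown to be particular to these loci. How uniquely reads could be placed in repeats was not tested.

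**Figure D5:**
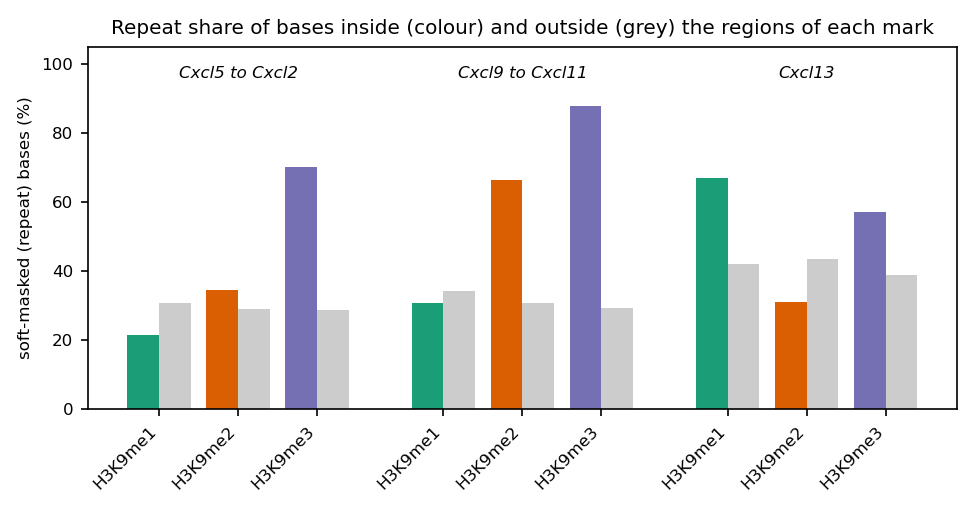
Share of soft-masked (repeat) bases, in percent, inside the regions of each mark (coloured bars) and in the rest of the locus with its flanks (grey bars), for the 3 loci. H3K9me3 regions have the larger repeat share in each locus, from 57.0% around Cxcl13 to 88.0% from Cxcl9 to Cxcl11.

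The other genes of the chemokine system lay on many chromosomes, and the share of genes called differed greatly between these. Among the 14 chromosomes that hold the genes listed, H3K9me1 met the starts of 74.8% of genes on chromosome 10, 36.7% on 9, 31.9% on 11 and 15.3% on 1, but 0.224% on 6 and 0% on X. Few genes of the sparsely called chromosomes were met at all, and the cause of this spread was not tested. The counts of the lists below are given beside the shares of the chromosomes that hold their genes.

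Of the 6 other CXC ligands, H3K9me1 met the starts of 2, the platelet genes Pf4 and Ppbp within the Cxcl5 to Cxcl2 cluster, and the other marks met 0. Of those not met, Cxcl16 is on chromosome 11, and Cxcl12 (chromosome 6), Cxcl14 (13) and Cxcl17 (7) are on chromosomes where H3K9me1 met under 1% of genes. Of the 10 receptors H3K9me1 met 5, which were Cxcr1 and Cxcr2 on chromosome 1 and Cxcr5, Ackr2 and Ackr4 on chromosome 9. H3K9me2 met Cxcr1 and Ackr2, and H3K9me3 met the start of Ackr1, the scavenging receptor of erythrocytes, on chromosome 1. By the same rule H3K9me2 met 3.28% of the genes of chromosome 1 and 15.8% of those of chromosome 9, and H3K9me3 met 5.83% and 13.7%. Of the receptors met by no mark, Cxcr4 and Ackr3 are on chromosome 1 and Cxcr6 on chromosome 9. Cxcr2, the receptor of Cxcl1, Cxcl2, Cxcl3 and Cxcl5, and Cxcr5, the receptor of Cxcl13, were thus met by H3K9me1. Cxcr3, the receptor of Cxcl9, Cxcl10 and Cxcl11, is on chromosome X and was met by none. Of 17 regulators of these ligands H3K9me1 met 5, namely the NF-kappaB subunit genes Rela and Nfkb2 (chromosome 19), the interferon signalling genes Stat2 and Ifngr1 (chromosome 10) and Irf9 (chromosome 14). On these chromosomes H3K9me1 met 50% (19), 74.8% (10) and 24.4% (14) of genes. H3K9me3 met Ifngr1, where it met 61.4% of the genes of chromosome 10. H3K9me2 met no start in this list, beside 64.5% of genes on chromosome 10, 25.7% on 19 and 16.9% on 14. Of the 12 regulators not met, 7 are on chromosomes where H3K9me1 met under 1% of genes, namely Nfkb1 (3), Il17ra and Tnfrsf1a (6), Relb and Irf3 (7), Nfkbia (12) and Ifngr2 (16). The CC chemokine genes of chromosome 11, a cluster of like kind, had 3 of 11 starts met by H3K9me1 (Ccl1, Ccl5 and Ccl6). H3K9me2 met 0 and H3K9me3 met 1 (Ccl1), where they met 8.40% and 7.51% of the genes of that chromosome. Ccl1 is annotated over chr11:82176657-82305690, a far longer span than any other gene of this list. Any annotated start counted, and which start of Ccl1 was met was not examined.

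The genes most like each member were sought among 21912 protein-coding genes outside the 3 loci, by the mean absolute difference over 9 covered shares (start window, body, and body with 200 kb on each side, for each mark). Members with no region at start or body had very close matches, since just the wide shares could differ. These were Csf3 for Cxcl1 at 0.0636 percentage points, Notum for Cxcl15 at 0.0764, Dcaf8 for Cxcl5 at 0.108 and Ppp2ca for Cxcl10 at 0.492. Members with regions had looser matches, namely Lpin2 for Cxcl9 at 1.31, Tcf15 for Cxcl2 at 1.37, 4930550C14Rik for Cxcl3 at 1.51, Asgr1 for Cxcl11 at 2.00 and Olfr107 for Cxcl13 at 2.11 points. The match for Cxcl13 was the loosest of the 9.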

How the data were processed

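ChIP-seq was performed by the authors on input, H3K9me1, H3K9me2 and H3K9me3 from 1 MEF clone, with 2 replicates each. According to the methods and the labels, the aligner was BWA 0.7.1, the assembly mm10 (GRCm38) and the region caller histoneHMM. The deposited lists, 1 per mark, hold region positions with no score, signal or count. How replicates, input and reads with several matches entered the call was not given in the sources used here. Positions lay on a 750 bp grid with 0 off it, starts 1-based and ends inclusive.

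Regions were intersected with GENCODE M21 genes (minimum overlap 1 bp) in Python 3.11.15 with NumPy 2.4.6, after tests on simulated intervals. A start site counted as met when a region overlapped 1 kb either side of any annotated start. Exons are those of the transcript with the longest coding sequence. Members within 500 kb of each other formed a locus. Shares are over bases that are not N, and repeats are soft-masked bases. Equal windows had at least 90% of such bases. Motifs were searched in RefSeq promoters. Protein sequences were not analysed here.

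The members, lists and comparisons were chosen with earlier results of these data known. Genes named were all members, protein-coding genes starting in a locus, listed pathway genes with a start met, and the closest gene to each member by covered shares. Pseudogenes and other genes beside a region were named after their values were seen. Alternatives varied region width, joining, coordinate base, start window, start choice, minimum share, flanks and background.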

Additional observations from a re-analysis of the deposited data

How the results depend on the processing

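The lists hold positions alone, so region width stood in for a stricter call, and neither the precision of a region nor the agreement of replicates can be read. No paired analysis was possible because the deposited lists do not separate the replicates, and leaving out a replicate was not run for the same reason. Of the 9 alternative counts of starts met by H3K9me1, 7 stayed within 1.5 times the reported count, as did 4 of 6 counts of bodies met by H3K9me1 and 4 of 6 by H3K9me2. The counts of 0 starts met by H3K9me2 and H3K9me3 and of 0 bodies met by H3K9me3 were 0 in the alternatives run. Most of those settings could only lower a count, so a 0 was fixed for them in advance. Only joining regions and, for starts, the 2 kb window could have raised it.

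Starts met by H3K9me1 fell from 4 to 2 (Cxcl3 and Cxcl2) with regions of at least 2 kb and to 0 with regions of at least 5 kb. They were 3 with 500 bp windows and 6 with 2 kb windows, which add Cxcl1 and Cxcl13. Bodies met by H3K9me1 fell from 4 to 1 with regions of at least 5 kb (Cxcl9) and to 1 with at least 50% of the body covered (Cxcl2). The Cxcl13 body met by H3K9me2 was lost under both settings, leaving 0.

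Covered shares followed the flanks, with 29 of 63 alternative values outside the 95% Wilson interval over 750 bp bins. This interval treats neighbouring bins as independent, although regions span many bins, so it is too narrow and is a yardstick only. From Cxcl5 to Cxcl2, H3K9me1 covered 11.7% with 100 kb flanks, 8.57% with 50 kb and 8.66% with none. H3K9me2 covered 0.649% with 100 kb flanks, and H3K9me3 2.13% with 50 kb and 3.58% with none. From Cxcl9 to Cxcl11, H3K9me1 covered 56.6%, 54.2% and 54.1% with 100 kb, 50 kb and no flanks. H3K9me2 covered 1.23%, 2.08% and 0%, and H3K9me3 0% at each of these. Around Cxcl13, H3K9me1 covered 3.31%, 4.32% and 0%, and H3K9me2 14.3%, 18.1% and 38.1%. H3K9me3 covered 8.64% with 50 kb and 0% with none. With regions of at least 5 kb, H3K9me1 covered 9.36%, 39.3% and 0% of the 3 loci in this order. H3K9me2 then covered 0.437% from Cxcl5 to Cxcl2 and 1.30% around Cxcl13. Joining regions up to 5 kb apart raised H3K9me1 from Cxcl9 to Cxcl11 to 57.9%.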
